A study of Mus musculus with 2 samples.

Results

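Arginine and nitric oxide metabolism was followed through 8 genes, Nos2, Arg1, Arg2, Slc7a1, Slc7a2, Ass1, Odc1 and Gch1, chosen by symbol, of 55536 annotated genes and 22028 protein-coding genes in the tables. All 8 symbols matched 1 gene each. The cells were macrophages grown from bone marrow of C57BL/6J mice, primary cells whose sex and age were not collected. They were exposed to lipid A, the part of bacterial lipopolysaccharide that Toll-like receptor 4 recognises, at 100 ng/ml for 12 h, then washed and left for 12 h, and given 100 ng/ml for a further 75 min. RNA of the chromatin fraction, which holds transcripts still attached to the template, was cleared of ribosomal RNA before sequencing, in 2 libraries of this 1 condition, labelled biological replicates 1 and 2 and made from 250 and 500 ng of RNA. Both libraries carry the same donor entry, so separate animals are not established. Cells without lipid A or without the repeat exposure were not analysed here, so the values are levels and no effect of a treatment was measured.

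The libraries held 18445009 and 17686824 expected counts, the reads assigned to each gene from alignments. By a second, alignment-free program they held 32760987 and 30332337 estimated counts on annotated genes. Levels are in TPM, which divides by transcript length and gives a share of the library. Protein-coding genes took 25.9% and 28.0% of TPM. All 8 macrophage markers reached 1 TPM in both libraries, among them Adgre1, Lyz2 and Csf1r, while none of the neutrophil, dendritic, fibroblast or lymphoid markers did by the alignment-based program. Of 5 endothelial markers, Vwf (17.4 and 38.6 TPM) and Kdr (3.09 and 4.29 TPM) did by that program. Pecam1 (1.07 and 0.70 TPM) did not, and Cdh5 and Tek had no more than 3 expected counts in a library. By the alignment-free program Pecam1 stood at 7.20 and 8.96 TPM. Mpo, Zbtb46, Col1a1 and Ms4a1, 1 marker each of the neutrophil, dendritic, fibroblast and lymphoid lists, also reached 1 TPM in both libraries there.

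Arginine enters macrophages through cationic amino acid transporters, of which Slc7a1 and Slc7a2 encode the best known. Inducible nitric oxide synthase, the product of Nos2, oxidises arginine to nitric oxide and citrulline and needs the cofactor tetrahydrobiopterin, whose synthesis from GTP starts with the enzyme encoded by Gch1. Citrulline can be returned to arginine by argininosuccinate synthase (Ass1) and lyase (Asl). The arginases encoded by Arg1 and Arg2 compete for the same arginine and split it into ornithine and urea, and ornithine decarboxylase (Odc1) turns ornithine into putrescine, the precursor of the polyamines. In macrophages Nos2 is a classic product of activation by bacterial components, and Arg1 a marker of alternative activation by interleukin-4.

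The cofactor gene Gch1 had the highest level of the 8 genes, at 51.4 ± 7.91 TPM (SD, n = 2 here and for all later errors). Odc1 at 16.25 ± 0.764 TPM, Nos2 at 12.3 ± 7.77 TPM, Slc7a1 at 9.71 ± 0.849 TPM and Slc7a2 at 9.15 ± 4.78 TPM formed a middle group. Ass1 stood at 2.08 ± 0.495 TPM, and both arginase genes were lowest, Arg2 at 0.37 ± 0.0141 TPM and Arg1 at 0.27 ± 0.311 TPM. Of the 8 genes, 6 reached 1 TPM in both libraries, against 40.1% of all protein-coding genes. When TPM was rescaled to protein-coding genes alone, Arg2 passed that limit too, at a mean of 1.37 TPM. Their median level was 9.43 ± 3.64 TPM, beside 7.99 TPM over the 9615 protein-coding genes that reached 1 TPM in either library and 0.29 TPM over all protein-coding genes.

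Neighbours in this order were separated in some places only. Gch1 lay above Odc1 in both libraries, Slc7a2 above Ass1, and Ass1 above Arg2. Library values overlapped between Odc1 and Nos2, Nos2 and Slc7a1, Slc7a1 and Slc7a2, and Arg2 and Arg1, so the order within the middle group and between the arginases was not resolved. By the alignment-free program Gch1 led again, at 42.7 ± 4.42 TPM, but its range of 39.6 to 45.8 TPM overlapped that of Nos2, 14.8 to 45.1 TPM. The same program placed Arg1 (0.885 ± 0.215 TPM) above Arg2 (0.75 ± 0.0482 TPM), with overlapping libraries.

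**Figure D1:**
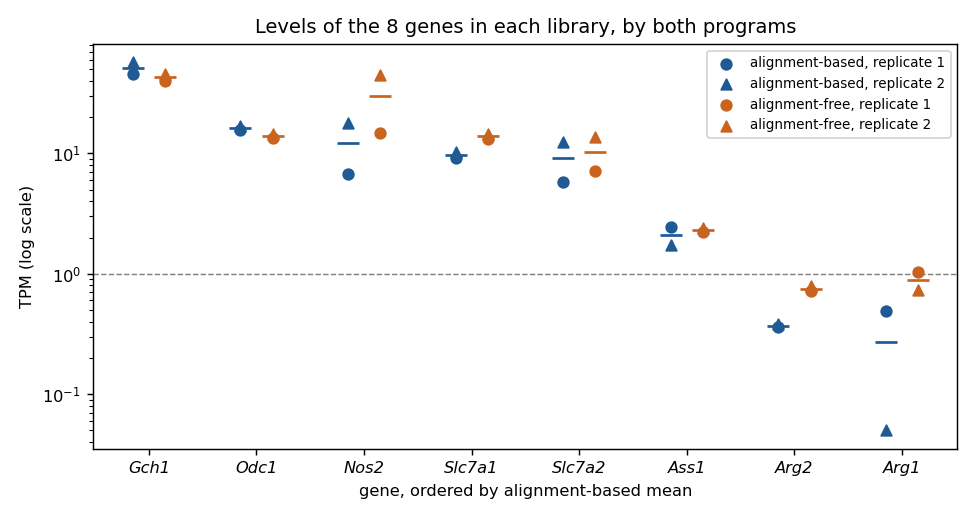
TPM of each of the 8 genes on a log axis, for both libraries (circles replicate 1, triangles replicate 2) and both programs, with short lines for means and a dashed line at 1 TPM. Gch1 is at the top, Nos2 and Slc7a2 have their triangles well above their circles, and the alignment-based values of both arginase genes lie under the dashed line.

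Nos2 lies on chromosome 11, 78920787 to 78960254, plus strand (mm10, as for all coordinates). It had 457 expected counts and 6.77 TPM in replicate 1, and 1086 expected counts and 17.8 TPM in replicate 2. Replicate 2 was thus the high library. The alignment-free program gave 14.8 and 45.1 TPM, and the excess over the alignment-based values came with the isoforms it used. The alignment-based program assigned every Nos2 count to Nos2-201, the isoform with 27 exons and a coding sequence of 3432 bases. The alignment-free program gave Nos2-201 nearly the same level, 6.75 and 16.0 TPM, and added 5.73 and 20.8 TPM for Nos2-202 and 2.27 and 8.31 TPM for Nos2-203. Nos2-202 is a short processed transcript of 648 bases, 116 of them outside the exons of the coding isoforms, so its 70.5 and 230.6 estimated counts weigh heavily in TPM. On the coding isoforms lay 93.2% and 90.9% of the alignment-free counts of Nos2.

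Gch1 (chromosome 14, 47153895 to 47189413, minus strand) had 2291 expected counts and 45.8 TPM in replicate 1 and 2563 counts and 57.0 TPM in replicate 2, and ranked 1141st among protein-coding genes by mean TPM. More than its coding messenger contributed to this. The coding isoform Gch1-201 held 902 and 1101 counts, or 20.9 and 28.1 TPM. The retained-intron isoform Gch1-202 held 1389 and 1462 counts, or 24.9 and 28.9 TPM. It is a single stretch of 3508 bases (47158365 to 47161872), of which 3476 bases, 99.1%, are intronic to Gch1-201. The rest is exon 4 of 6, only 32 bases long (47158863 to 47158894). Reads on this isoform are therefore nearly all intron reads. It took 52.6 ± 2.58% of the gene's TPM, 58.8 ± 2.54% of its expected counts and 49.4 ± 0.434% of its alignment-free TPM. Both programs and both libraries thus put about as much RNA per length on the intron-bearing stretch as on the spliced form. Even without that isoform, Gch1-201 alone exceeded every other of the 8 genes in both libraries by alignment-based TPM. By alignment-free TPM this held in replicate 1 but not in replicate 2, where Gch1-201 had 23.3 TPM and Nos2 45.1 TPM.

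The window chr14:47158823-47158934 (minus strand, mm10, transcript sequence of GENCODE M21) shows how small the exonic part of Gch1-202 is, with exon 4 in capitals between 40 bases of intron on each side. The intron bases next to the exon are ag before it and gt after it.
Gch1-202 around exon 4: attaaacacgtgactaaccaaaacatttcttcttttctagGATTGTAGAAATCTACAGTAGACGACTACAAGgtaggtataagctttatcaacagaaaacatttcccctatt

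The transporter genes differed in how alike the libraries were. Slc7a1 (chromosome 5, 148327410 to 148399904, minus strand), the widely expressed arginine transporter gene, had 564 expected counts and 9.11 TPM in replicate 1 and 713 counts and 10.3 TPM in replicate 2. Slc7a2 (chromosome 8, 40862396 to 40922308, plus strand), known as the inducible one in macrophages, had 607.9 counts and 5.77 TPM in replicate 1 and 1194 counts and 12.5 TPM in replicate 2. The libraries of Slc7a1 lay close together, while those of Slc7a2 were wide apart and, by the alignment-based program, enclosed both values of Slc7a1. The alignment-free program gave 13.1 and 14.5 TPM for Slc7a1 and 7.12 and 13.6 TPM for Slc7a2. For Slc7a1, the retained-intron isoforms Slc7a1-204 and Slc7a1-205 together held 31.2% and 21.7% of counts, but 58.0% and 49.6% of TPM. Slc7a1-204 had 105 and 89 counts, and 97.3% of its bases lie outside the coding exons. A RefSeq start of Slc7a1, at 148392815, lies inside Slc7a1-204, and whether reads there come from an intron or from that start was not tested.

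Slc7a2 has a pair of alternative exons, known from the gene's high- and low-affinity transporter forms, and the programs divided its reads between them differently. A 140-base exon (40908056 to 40908195) belongs to Slc7a2-202 and Slc7a2-203, and a 137-base exon (40908398 to 40908534) to Slc7a2-201 and Slc7a2-204. The 2 exons had 84 identical bases in 140 alignment columns (60.0%). They are printed because they are a part of the coding sequence in which the isoforms differ, with bases that differ or lie opposite a gap in capitals. The isoforms' coding sequences differ elsewhere too. Slc7a2-201 and Slc7a2-204 hold the same exon but have coding sequences of 1971 and 2022 bases. Which of them makes which transporter form was not assigned here.
Slc7a2-203 exon, chr8:40908056-40908195, plus strand: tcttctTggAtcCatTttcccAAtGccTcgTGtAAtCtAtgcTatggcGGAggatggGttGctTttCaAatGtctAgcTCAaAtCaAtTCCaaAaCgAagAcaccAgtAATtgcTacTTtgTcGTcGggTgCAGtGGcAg
Slc7a2-201 exon, chr8:40908398-40908534, plus strand: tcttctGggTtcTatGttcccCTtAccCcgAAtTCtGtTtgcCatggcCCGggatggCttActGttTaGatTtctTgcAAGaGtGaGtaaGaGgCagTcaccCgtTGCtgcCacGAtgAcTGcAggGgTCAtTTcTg

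By the alignment-based program, isoforms with the 137-base exon held 68.4% of the Slc7a2 counts in replicate 1 and 79.4% in replicate 2. By the alignment-free program they held 35.8% and 35.9%. The programs thus disagreed on which exon prevailed, although their totals for the gene were close in TPM. Expected counts of Slc7a2-201 were 300.3 and 772 with posterior SDs, the program's own measure of assignment uncertainty, of 55.4 and 72.3. Those of Slc7a2-203 were 192 and 189 with posterior SDs of 55.5 and 75.3. The posterior SD of the whole gene's count was 0.9 and 2.42, so within this program's own assignment the uncertainty lay between the isoforms. That SD does not cover the difference between programs, where the gene's log2 ratio of replicate 2 over replicate 1 was 1.11 (alignment-based) and 0.87 (alignment-free). Whether reads in exon bases shared with the antisense gene Gm26584 were assigned to the right gene was not tested.

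**Figure D2:**
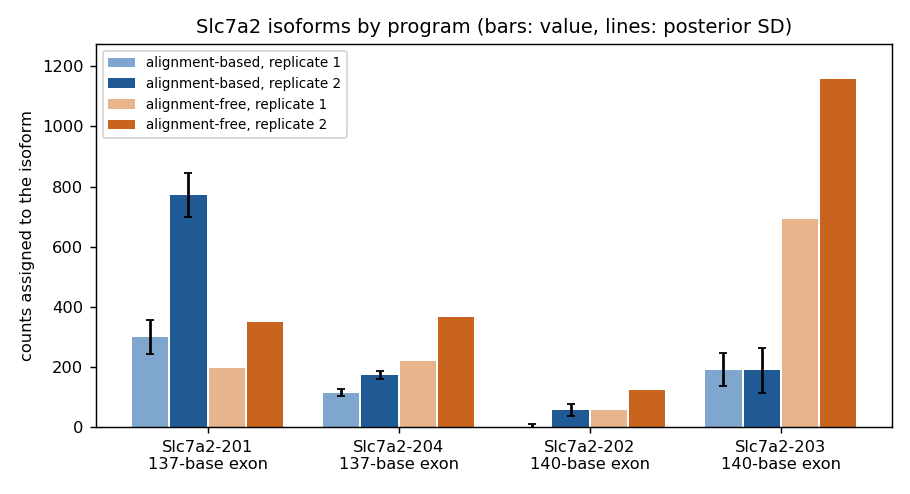
Counts assigned to 4 Slc7a2 isoforms in each library by each program, with posterior SDs as lines where the alignment-based program gives them. Alignment-based counts are highest on Slc7a2-201 and alignment-free counts on Slc7a2-203, and Slc7a2-205, not drawn, had 0 counts by both.

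Both arginase genes were near the limit of detection. Arg1 (chromosome 10, 24915221 to 24927484, minus strand), the cytosolic arginase gene, had 3 expected counts in replicate 1 and 1 in replicate 2. The exact 95% Poisson intervals of these counts are 0.619 to 8.77 and 0.0253 to 5.57, so the libraries were not distinguishable (intervals here cover counting error only). In replicate 1, 2 of the 3 counts lay on retained-intron isoforms. Arg2 (chromosome 12, 79130777 to 79156301, plus strand), the mitochondrial arginase gene, had 7.23 and 7.05 expected counts. The alignment-free program gave 17 and 16 estimated counts for Arg1 and 24.4 and 24.1 for Arg2. Arg2 shares 116 exon bases with the antisense gene Gm48780 (16 and 12 counts) and 285 with Vti1b on the opposite strand (155 and 165 counts). Whether strand was used in counting is not stated, so reads in shared bases cannot be told apart.

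Per base of the longest coding isoform, Nos2 exceeded each arginase gene in both libraries and by both programs. Against Arg2 the ratio was 22.2 (95% interval 10.7 to 55.6) in replicate 1 and 52.8 (25.6 to 131.8) in replicate 2 by expected counts, and 14.6 and 35.8 by the alignment-free program. Against Arg1 it was 53.7 (18.3 to 261) and 383 (68.5 to 15127) by expected counts, and 21.3 (13.3 to 36.8) and 55.5 (34.1 to 97.3) by the alignment-free program. The size of the ratio rests on the few arginase counts, while the lowest interval bound over all of these was 9.76.

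Ass1 and Odc1 process the products of the competing routes. Ass1 (chromosome 2, 31470207 to 31520672, plus strand) had 24 expected counts and 2.43 TPM in replicate 1 and 16.3 counts and 1.73 TPM in replicate 2. The alignment-free program gave 2.21 and 2.41 TPM, with the other library ahead, so no difference between libraries was resolved. Of the Ass1 counts, 43.8% and 39.2% lay on 3 retained-intron isoforms of at most 662 bases, which made up 77.4% and 74.6% of its TPM. Odc1 (chromosome 12, 17544794 to 17551505, plus strand) had 191 counts and 15.7 TPM in replicate 1 and 230 counts and 16.8 TPM in replicate 2. Its reads were spread over many isoforms. The coding isoform Odc1-201 had 99.5 and 102.6 counts, 5 retained-intron isoforms together 63.1 and 52.1, and 2 isoforms annotated for nonsense-mediated decay 28.4 and 75.3. The last counts all lay on Odc1-205, with posterior SDs of 6.73 and 9.5. The alignment-free program gave the decay class 107.1 and 124.2 counts, so its difference between libraries depends on the program. By TPM the coding isoform of Odc1 held 2.97 and 3.37, or 18.9% and 20.1% of the gene.

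Across the 8 genes, 5 have an annotated retained-intron isoform and 3, Nos2, Arg2 and Slc7a2, have none. Mean shares of TPM on that class were 53.8 ± 5.94% for Slc7a1, 76.0 ± 1.98% for Ass1, 69.1 ± 8.25% for Odc1 and 52.6 ± 2.58% for Gch1. Among 5998 protein-coding genes with such an isoform and a mean TPM of at least 1, the median share was 45.1%. Arg1, with its 3 and 1 counts, had 89.8% and 0%. By counts the shares were lower for Slc7a1 (26.4 ± 6.71%), Ass1 (41.5 ± 3.27%) and Odc1 (27.8 ± 7.36%), whose retained-intron isoforms are shorter than the longest coding one, and higher for Gch1, whose isoform is longer. Intron reads of Nos2, Arg2 and Slc7a2 had no such isoform to fall on, so a low intron content of these genes is not shown. Ranked by counts per kb of the longest coding isoform and 1000000 counts of the library instead of TPM, Gch1 (48.6 ± 5.28) and Nos2 (10.3 ± 6.19) were highest, ahead of Slc7a2 (6.37 ± 3.09), Odc1 (5.31 ± 0.848) and Slc7a1 (4.95 ± 0.9601). Neighbours from Nos2 to Slc7a1 overlapped on that scale too. Its counts are those of the whole gene, so reads on retained-intron isoforms stay in, a mean of 58.8% of counts for Gch1.

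**Figure D3:**
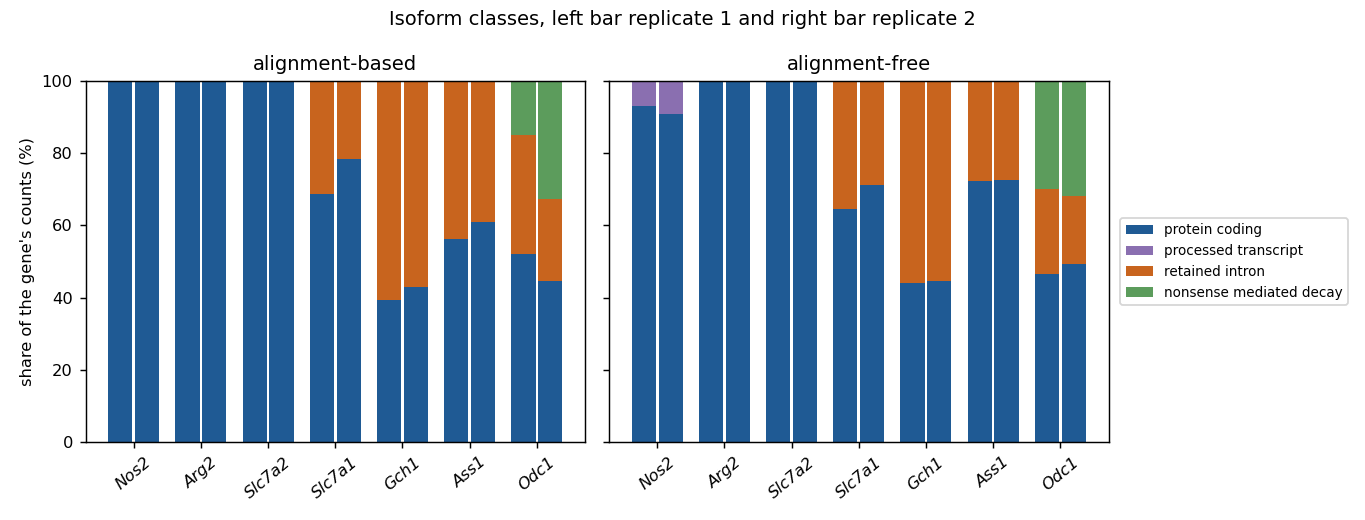
Share of each gene's counts by annotated isoform class, by program, with a pair of bars per gene for replicates 1 and 2. Arg1 is left out for its 3 and 1 counts. Coding isoforms hold all alignment-based counts of Nos2, Arg2 and Slc7a2, and a retained-intron isoform holds over 55% of Gch1 counts in every bar.

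Nos2 and Slc7a2 were the members that differed most between the libraries. The log2 ratio of replicate 2 over replicate 1, after scaling by TMM (trimmed mean of M values), was 1.38 for Nos2 (95% counting interval 1.22 to 1.54) and 1.11 for Slc7a2 (0.965 to 1.25). These ratios are 2.61-fold and 2.15-fold. Slc7a1 stood at 0.47 (0.31 to 0.63), Odc1 at 0.40 (0.12 to 0.69) and Gch1 at 0.29 (0.21 to 0.38). Ass1, at -0.45, had an interval from -1.46 to 0.52 that includes 0. Arg1 and Arg2 fell under the minimum of 10 counts in each library and have no ratio. Of the 6 genes with a ratio, 2 were at least 2-fold higher in replicate 2 and 0 at least 2-fold lower, against 4.09% and 3.20% of 13247 genes with 10 counts in each library. Of the 5 with at least 100 counts in each library, 2 were at least 2-fold higher, against 2.57% of 7391 such genes. Their median log2 ratio over 6 genes was 0.44, beside 0.0035 over all 13247. The 100-count genes had an SD of log2 ratios of 0.45. The interval of Slc7a2 reached below 2-fold, and its call did not hold by the alignment-free program, where its log2 ratio was 0.87 and that of Nos2 1.39.

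**Figure D4:**
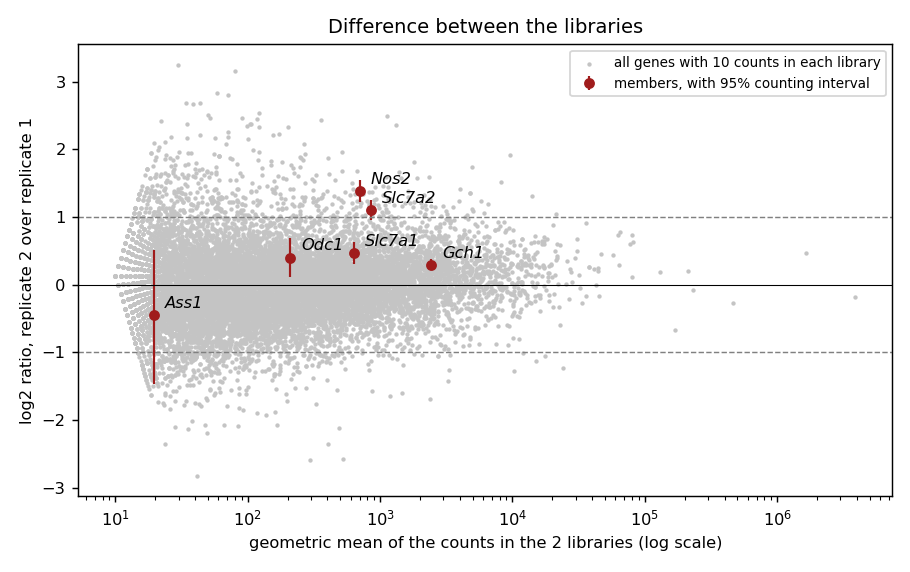
Log2 ratio of replicate 2 over replicate 1 against the geometric mean count on a log axis, for all genes with 10 counts in each library (grey) and 6 members (red, with 95% counting intervals). Nos2 and Slc7a2 lie above the dashed 2-fold line at 1, and Slc7a1, Odc1 and Gch1 lie between 0 and 1.

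Other measures moved between the same libraries. The starting RNA was 250 ng in replicate 1 and 500 ng in replicate 2. The 8 macrophage markers summed to 978 TPM in replicate 1 and 524 TPM in replicate 2, and 3 of them, Adgre1 (-1.28), Itgam (-1.65) and Fcgr1 (-1.04), were at least 2-fold lower in replicate 2 by log2 ratio. Over all 13247 genes with 10 counts in each library, 3.20% were at least 2-fold lower. Lyz2 stood at -0.90 and Csf1r at -0.87, while Cd68 (0.08), Spi1 (-0.06) and Mertk (-0.06) were near 0. The alignment-free program put Lyz2 (-1.15) and Csf1r (-1.03) past 2-fold as well, beside Adgre1 (-1.12), Itgam (-1.47) and Fcgr1 (-1.22). Cd68 (-0.035), Spi1 (-0.057) and Mertk (-0.20) were not past it there. Adgre1 alone went from 496.6 to 192.7 TPM, so the sum follows mostly that gene. The 5 endothelial markers summed to 21.6 and 43.7 TPM, mostly Vwf at a log2 ratio of 1.21. Kdr stood at 0.46, Pecam1 at -0.80 (42 and 22 counts, and 0.24 by the alignment-free program), and Cdh5 and Tek each had 3 and 1 counts, so the 5 did not move together. Fibroblast markers summed to 53 and 87 expected counts, neutrophil markers to 2 and 4, dendritic markers to 78 and 68, and lymphoid markers to 2 and 1. The fibroblast difference lay mostly in Col1a1 (15 and 39 counts), whose log2 ratio was 1.51 but 0.07 by the alignment-free program. The part of RNA amount or cell content in the ratios of Nos2 and Slc7a2 was not tested. In bulk RNA, fewer cells of a type and less RNA per cell cannot be told apart. At the Slc7a2 locus, the antisense lincRNA Gm26584 (40862395 to 40865647) had 341 and 657 counts and a log2 ratio of 1.08, close to that of Slc7a2. It shares 635 exon bases with Slc7a2, and reads in them cannot be assigned to a strand here. Nos2, Arg1, Slc7a1 and Ass1 overlap no other annotated gene, and Odc1 and Gch1 share no exon bases with the small RNA and pseudogenes in their spans.

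The wider pathway was followed in 64 further genes of 7 lists. At least 1 TPM in both libraries was reached by 39 of them, against 40.1% of all protein-coding genes, and 9 had 0 counts in both. Of 43 with 10 counts in each library, 0 were at least 2-fold higher in replicate 2 and 3 at least 2-fold lower, beside the 4.09% and 3.20% over all genes. The 3 were Gatm (-1.52), an enzyme of creatine synthesis that uses arginine, Prmt5 (-1.08), an arginine methyltransferase, and Hmox1 (-1.07), heme oxygenase. By the alignment-free program Gatm stood at -1.49 and Hmox1 at -1.18, while Prmt5 stood at -0.16 and was no longer 2-fold lower. Prmt5 and Hmox1 were named after their values were seen. The median log2 ratio of the 43 was 0.05.

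Among synthases, Nos2 was the isoform with a level. Nos1, the neuronal synthase gene, had 0 and 2 expected counts but 1.21 and 1.38 TPM by the alignment-free program, so the programs disagree on it. Nos3, the endothelial synthase gene, had 0 counts by both programs, where a count of 0 allows up to 3. Of the 11 synthases and partners, 8 reached 1 TPM in both libraries, among them the reductase gene Por (70.3 ± 0.134 TPM) and the chaperone gene Hsp90aa1 (24.4 ± 6.27 TPM). The number was 10 by the alignment-free program. Nos2 was the gene of this list at least 2-fold higher in replicate 2.

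Tetrahydrobiopterin genes were uneven. Of 8, 3 reached 1 TPM in both libraries by the alignment-based program. They were Gch1, Pts (13.3 ± 0.127 TPM), the next enzyme of synthesis, and Qdpr (1.3 ± 0.354 TPM), which recycles the cofactor. By the alignment-free program 4 did, with Pcbd1 at 2.26 and 4.78 TPM, against 0.66 and 1.58 TPM by the alignment-based one. The lowest by the alignment-based program was Spr, the last enzyme of synthesis, at 10 and 5 counts (0.14 ± 0.0566 TPM).

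In the urea and citrulline cycle, 3 of 9 genes reached 1 TPM in both libraries. They were Asl (6.61 ± 0.834 TPM), the mitochondrial carrier gene Slc25a13 (3.03 ± 1.08 TPM) and Ass1. Cps1, which starts the hepatic urea cycle, had 0 counts by both programs, and it was the lowest of the list together with Otc, at 0 expected counts.

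Of 8 cationic amino acid transport genes, 7 reached 1 TPM in both libraries by the alignment-based program, against 40.1% of all protein-coding genes. The number was 6 by the alignment-free program, where Slc7a6 stood at 0.848 and 0.961 TPM. Slc3a2, the heavy chain that partners light-chain transporters, was highest at 96.1 ± 20.5 TPM. Slc38a9, a lysosomal arginine sensor, stood at 22.9 ± 2.41 TPM and Slc7a7, a light chain of arginine exchange, at 14.4 ± 4.2 TPM (67.4 and 63.9 by the alignment-free program). Slc6a14 had 0 counts by both programs.

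Of 15 polyamine genes, 12 reached 1 TPM in both libraries, and 14 did by the alignment-free program. Sat1, which acetylates spermidine and spermine for export and breakdown, had 326 ± 50.5 TPM, the highest level of the 64 genes. Azin1, which relieves ornithine decarboxylase of its antizyme inhibitors, had 51.1 ± 2.22 TPM, and Dhps, which uses spermidine to modify eIF5A, 24.2 ± 0.926 TPM. Odc1 lay below both. Sat2 was lowest by the alignment-based program, at 1 and 0 counts, but had 1.68 and 1.71 TPM by the alignment-free program, above Srm (1.2 and 0.939 TPM).

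Of 13 other arginine and ornithine enzymes, 7 reached 1 TPM in both libraries. By the alignment-based program Rars, the arginyl-tRNA synthetase gene, was highest at 27.2 ± 0.163 TPM. It was ahead of the methyltransferase gene Prmt1 (5.71 ± 1.82 TPM) and Gatm (2.81 ± 2.03 TPM), and Ddah1 was at 0 counts. By the alignment-free program 10 of the 13 reached the limit. Rars led again at 44.6 TPM, but Prodh (12.0 TPM) came next and Gatm (2.53 TPM) was no longer among the 3 highest. Pycr1 had 14 and 8 expected counts but 370 and 580 estimated counts, so the programs disagree on it. Prodh and Pycr1 were named after their values were seen. Among 8 nitric oxide targets and defence genes 5 reached the limit, led by the thioredoxin reductase gene Txnrd1 (110.9 ± 34.2 TPM), Txn1 (12.1 ± 0.191 TPM) and Gsr (5.35 ± 1.89 TPM). Gucy1a1 and Gucy1b1, subunit genes of the nitric oxide receptor soluble guanylate cyclase, had 0 expected counts, as did Cygb. The alignment-free program gave 12.5 and 14.3 counts for Gucy1a1, 0 for Gucy1b1, and 56 and 115 for Cygb (0.942 and 2.14 TPM), so the programs disagree on Cygb. Alternative activation markers were near 0 apart from Mrc1, the mannose receptor gene, at 20.4 and 34.2 TPM. Clec10a (0.7 ± 0.269 TPM) and Pdcd1lg2 (0.175 ± 0.0495 TPM) followed, and Retnla and Mgl2 had 0 expected counts (0 and 1, and 3.1 and 10.8, by the alignment-free program).

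**Figure D5:**
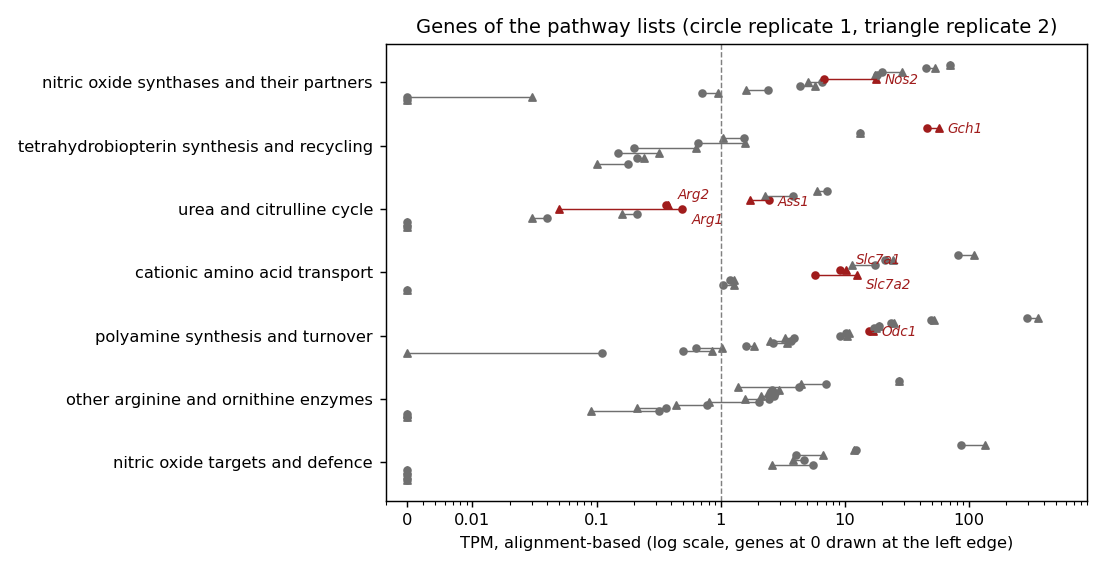
Alignment-based TPM of every gene of the 7 pathway lists on a log axis, circles for replicate 1 and triangles for replicate 2 joined by a line, the 8 members in red, and genes at 0 drawn at the left edge. Gch1 tops its list, Nos2 and Slc7a2 have long lines, and both arginase genes lie left of the dashed line at 1 TPM.

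Promoter windows were in the RefSeq table (GRCm38.p6) for Slc7a1, with a pair of starts, Ass1, Odc1 and Gch1, and those of Nos2, Arg1, Arg2 and Slc7a2 were not analysed here. In the 250 bases upstream of the start, the GC box (GGGCGG) was in 4 of the 5 windows, against 32.7% of 32841 windows. The 10-base consensus of NF-kB, the transcription factor that Toll-like receptors activate, matched in 1 of 5, against 3.9% of all windows. That match was in Gch1, directly upstream of its start at bases -10 to -1. Gch1 is printed because it had the highest level of the 8 genes, as chr14:47189414-47189663 (minus strand), with matches to the searched motifs in capitals. They are, 5′ to 3′, a TATA box match on the opposite strand at bases -188 to -183, a pair of GC boxes and the NF-kB match.
Gch1 promoter: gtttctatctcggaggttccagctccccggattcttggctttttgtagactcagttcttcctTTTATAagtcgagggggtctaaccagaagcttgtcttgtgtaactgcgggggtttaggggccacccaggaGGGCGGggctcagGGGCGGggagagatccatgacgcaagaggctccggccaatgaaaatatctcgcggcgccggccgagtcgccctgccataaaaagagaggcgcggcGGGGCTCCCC

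Each other searched motif, on both strands, was in at most 2 of the 5 windows. The TATA box (TATAAA) was in Gch1 and in the internal Slc7a1 window (12.4% of all windows), the gamma-activated site (TTCNNNGAA) in the same Slc7a1 window (7.02%), the AP-1 site (TGANTCA) in the outer Slc7a1 window (6.75%) and the MYC E-box (CACGTG) in Ass1 (6.02%). The interferon response element (GAAANNGAA), CRE (TGACGTCA), C/EBP site (TTGCNNAA), octamer (ATGCAAAT), hypoxia response element (TACGTG) and amino acid response element (TGATGNAA) matched in 0 of 5, with shares of all windows of 7.13%, 1.55%, 9.57%, 1.6%, 2.72% and 3.45%. The E-box, CRE, AP-1 and gamma-activated letters read the same on both strands. A match is a description of sequence, and binding was not measured.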

How the data were processed

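Chromatin-fraction RNA-seq of mouse macrophages was analysed in 2 libraries of 1 group, named by the labels' replicate numbers. The deposited expected counts and TPM per gene and transcript came from alignments to mm10 with GENCODE M21, with column names and posterior SDs per the file headers. The authors' second table holds estimated counts and TPM made without alignment, per the file headers, and was summed per gene here. For programs, versions and strand setting, nothing is given in the sources used here. Reads were assigned to annotated transcripts, so intron reads count only through isoforms that hold them. Entries outside the annotation (0.305% and 0.262% of expected counts) were left out of library sizes.

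With 1 group there is no test. The libraries were compared by rounded counts scaled by TMM (edgeR 4.0.16), with at least 10 counts in each and a 2-fold limit, with DESeq2 1.42.0 size factors as an alternative. Counting intervals are exact at 95% (scipy 1.17.1). Steps were tested on simulated data with counting noise alone, so spread between replicates beyond counting was not covered. The 8 genes, the lists and the naming rule (all 8 genes, and the 3 highest and the lowest of each other list by mean TPM with each nitric oxide synthase) were chosen with earlier results of these data known. A gene that this rule names is not reported here. A planned comparison of protein sequences was not run. With 2 libraries, an SD rests on a single difference.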

Additional observations from a re-analysis of the deposited data

How the results depend on the processing

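Alternatives were the alignment-free program, TPM over protein-coding genes alone, other limits and scalings, and leaving out each library. Counts per kb of the longest coding isoform were added after seeing the data. The median level of the 8 genes was 34.8 TPM when TPM was rescaled to protein-coding genes and 5.13 counts per kb of that length and 1000000 counts. Without a library it ranged from 6.27 to 11.4 TPM. With TPM over protein-coding genes alone, 7 of the 8 genes reached 1 TPM in both libraries in place of 6, and with a limit of 5 TPM 5 did. The number at least 2-fold higher in replicate 2 was 1 by the alignment-free program in place of 2, and 2 under each other scaling or filter. The log2 ratio of Ass1 changed sign by the alignment-free program, to 0.0092. The retained-intron share of Gch1 was 58.8% by counts and 49.4% by the alignment-free program, and without a library it ranged from 50.7% to 54.4%. The cause of these changes was not tested. Of the 64 other genes, 46 reached 1 TPM by the alignment-free program and 45 with TPM over protein-coding genes alone, in place of 39. The difference between libraries cannot be recomputed without a library. No paired analysis was possible because there is 1 group. Depth limits Arg1, Arg2 and Ass1, whose counts of at most 24 cannot show moderate differences.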
